A study of Homo sapiens with 3 samples.

Results

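The 996 human transcripts whose coding sequence (CDS) ends in UGA with G as the next nucleotide, here called UGAG transcripts, were examined for stop codon readthrough with and without the aminoglycoside G418. They were taken from the transcripts present in the tables of every library that passed a minimum on their mean CDS count, with a readthrough region of at least 18 nt and at least 1 further stop codon in frame in the 3′UTR. They made up 18.3% of the 5438 transcripts that passed these limits with any stop codon and 37.6% of the 2647 that ended in UGA, and the tables held 8812 transcripts in common. Of 1693 UGAG transcripts in the common list, 639 were below the count minimum and 58 had no further in-frame stop. The least covered transcript inside the count minimum had a mean of 128.3 CDS reads and the most covered outside it 127.3.

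The data were ribosome profiles of HEK293T cells, an immortalised line from human embryonic kidney that expresses SV40 T antigen. In this assay the lysate is treated with RNase and the stretches of mRNA covered by ribosomes (ribosome-protected fragments, RPFs) are sequenced. There were 2 untreated libraries, Untreated A and Untreated B (0 µg/mL), and 1 library from cells kept for 24 hours in 500 µg/mL G418, named G418 A. The study calls its replicates biological, whereas the labels give no culture or preparation for the untreated libraries, and with 1 G418 library no test was made between conditions.

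Translation ends when a stop codon enters the ribosomal A site and release factor eRF1, with the GTPase eRF3, reads it and releases the peptide. The eRF1 pocket also takes in the nucleotide after the stop codon, called +4 because the first base of the stop codon counts as +1, so that a stop signal is often written with 4 letters. Where a near-cognate tRNA decodes the stop codon instead, the ribosome reads on in frame until the next stop codon, which is called readthrough. UGA is regarded as the leakiest of the stop codons and C as the most permissive +4 nucleotide, while a purine at +4 is regarded as favouring release. Aminoglycosides such as G418 bind the decoding centre of the small ribosomal subunit and make it accept near-cognate tRNAs.

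The sequences around the UGAG stops that gave the highest and the lowest readthrough are shown first, because the later comparisons by neighbouring nucleotide refer to them. Each run is the mRNA strand from 5′ to 3′, with 15 nt before the stop codon and 12 nt after it, T standing for U, and the stop codon and +4 G in capitals; positions and bases are from hg38 and GENCODE 44. In 961 of the 996 transcripts the transcript was found in that annotation with the same stop signal. The following were among the highest in G418 of the transcripts with at least 50 readthrough reads there and a match in the annotation, or, in the case of PMAIP1 and BAX, in untreated cells among those with at least 10 readthrough reads in each untreated library.
SPCS1: catgctaaaaataatTGAGgttttcatgat
HOXD11: ggaaaccccttatttTGAGagctccaggaa
RNF7: caaagaatcggcaaaTGAGagtggttagaa
SMAD4: ccacaacctttagacTGAGgtcttttaccg
COX5B: cagcagctggcacacTGAGcacctgcacta
MCM2: atcctgcagcagttcTGAGgccctatgcca
HLA-C: atcacttgtaaagccTGAGacagctgcctg
LRRC59: accgactctcagcagTGAGcttgtccccag
PMAIP1: agactgcattgtaatTGAGaggaatgtgaa
BAX: tggaagaagatgggcTGAGgcccccagctg

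The next set had some of the lowest readthrough in G418 among UGAG transcripts with enough coverage to see it. S100A11, MAPRE3 and MRPS21 ended at the stop codon of the MANE Select transcript (the transcript that RefSeq and Ensembl jointly chose for the gene), and RPL15 and RPL23 at another.
S100A11: tcccagaagcggaccTGAGgaccccttggc
MAPRE3: gaccaggacgagtacTGAGggcggccgcag
MRPS21: ccgtggcagggctgcTGAGgcctgtgggtg
RPL15: tctgtctcccgggttTGAGcaattcttctg
RPL23: ctgcaattacaagtgTGAGccactgcatcc

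The stop codon of SPCS1 lay at chr3:52707810-52707812 on the plus strand, in exon 4 of 4. The stop codon of HOXD11 lay at chr2:176109140-176109142 on the plus strand, in exon 2 of 2, and that of RNF7 at chr3:141745275-141745277 on the plus strand, in exon 3 of 3. S100A11 ended at chr1:152032662-152032664 on the minus strand, in exon 3 of 3. Of the matched UGAG transcripts, 919 had the stop codon in the last exon and 42 in an earlier exon. The sequence after the stop codon is 3′UTR in each annotated transcript, and in 43 UGAG transcripts part of the readthrough region is annotated as CDS of some other transcript.

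Readthrough was measured by the ribosome readthrough score (RRTS), given here in percent of the CDS density. It is the RPF density from the normal termination codon (NTC) through the first in-frame stop codon of the 3′UTR (called 3′TC), divided by that of the CDS. The region length includes the 3′TC, where the paper reported ribosomes enriched in G418, and reads at the 3′TC were not separated from the rest. Any read in this region is called a readthrough read here, and its reading frame was not examined. The paper found the RPFs of untreated 3′UTRs spread equally over the reading frames, whereas in G418-treated cells the CDS frame was strongly kept. Reads of the untreated libraries are therefore not shown to come from readthrough. The region held between 18 and 615 nt with a median of 78 nt, against a median of 66 nt in all 5438 transcripts. A UGAG transcript had a median of 272.5 CDS reads in Untreated A, 482.5 in Untreated B, against 394 in G418 A. The reads behind the libraries' scaling numbered 5857230 in Untreated A, 9477972 in Untreated B, against 7216039 in G418 A. At CDS density the median region would have held 15.3, 26.6 and 21.8 reads in these libraries, so an RRTS of 0 in a single transcript was often a limit of depth. The HEK293T markers VIM, KRT8, KRT18, NEFM and DBN1 were listed in all 3 libraries, at 12.5 to 2163 RPKM. Of 5 markers of other cells 1, COL1A1, was listed, at 7.99 to 10.7 RPKM. This was not far below NEFM, the lowest HEK293T marker, at 12.5 to 21.3 RPKM.

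Readthrough of UGAG stops was far higher in the G418 library than in either untreated library. In Untreated A, 586 reads lay in the readthrough regions of UGAG transcripts, which gave a pooled RRTS (all reads over all reads expected at CDS density) of 1.18% (exact Poisson 95% interval 1.08 to 1.27%). In Untreated B, 952 reads gave 1.13% (1.06 to 1.20%), so that the untreated mean was 1.15% ± 0.0349 (SD, n = 2). In G418 A, 14330 reads gave 22.7% (22.4 to 23.1%). The G418 library lay far outside the spread of the untreated libraries, at 19.8-fold their mean, while the untreated libraries differed 1.04-fold from each other. These intervals cover counting error only. Over all 5438 transcripts the pooled RRTS was 1.61% in Untreated A, 1.27% in Untreated B, against 21.8% in G418 A, a fold of 15.1. With 3 reads as the floor, a pooled RRTS of 0.00602% could have been seen in Untreated A, 0.00355% in Untreated B, against 0.00476% in G418 A.

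The increase came from most UGAG transcripts rather than from a few. In Untreated A 205 of 996 (20.6%) had any readthrough read, against 23.8% of all transcripts, and in Untreated B 214 (21.5%) against 22.1%. In G418 A 796 (79.9%, Wilson 95% interval 77.3 to 82.3%) had at least 1, against 75.9% of all transcripts. The median RRTS of a UGAG transcript was 0 in both untreated libraries and 20.1% in G418 A, with quartiles at 5.39% and 41.1%. The RRTS was higher in G418 A than in both untreated libraries in 758 UGAG transcripts (76.1%), against 72% of all transcripts, so this share was not far from the background. The 10 transcripts with the most readthrough reads carried 27.0% of the UGAG readthrough reads in Untreated A, 24.5% in Untreated B, against 20.4% in G418 A.

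**Figure D1:**
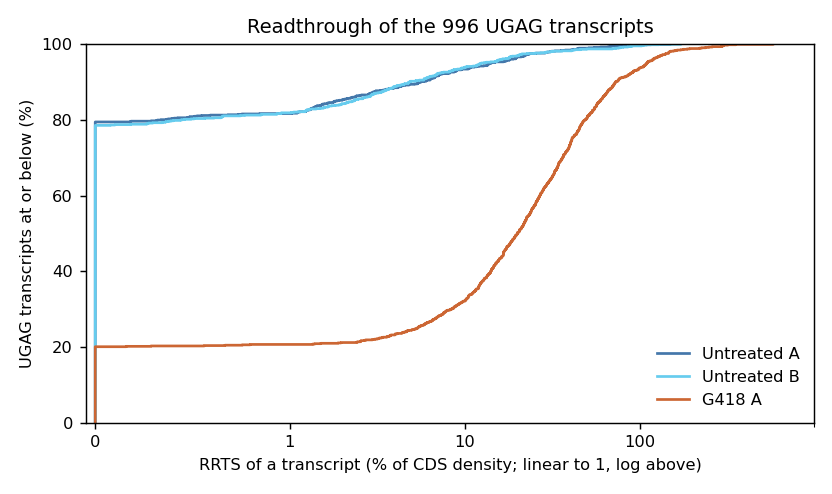
Cumulative share of the 996 UGAG transcripts (y axis, percent) at or below a given RRTS (x axis, percent of CDS density, linear to 1 and logarithmic above), with a line for each library. Both untreated lines start near 80% because most transcripts had no readthrough read, whereas the G418 A line starts at about 20% and crosses its middle at an RRTS of 20.1%.

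Some UGAG transcripts stayed without a readthrough read. All 3 libraries were at 0 in 175 of them, 493 had reads in G418 A and in neither untreated library, and 88 had reads in all 3. The same shares were not computed over all transcripts, so these counts are not read as particular to UGAG. The 200 transcripts at 0 in G418 A had a median of 6.74 reads expected at CDS density, and the 796 above 0 had 27.7, so coverage moved with detection. In 6 transcripts (0.602%, against 0.515% of all transcripts) G418 A was below both untreated libraries. These were C4orf48, PUDP, SERTAD4, SRRT, TTF1 and UTP14A, named after their values were seen. They had between 0 and 4 readthrough reads in G418 A and between 1 and 6 in each untreated library, and PUDP, with 27.8 expected reads in G418 A, was the best covered.

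UGAG was then set against the other +4 nucleotides after UGA and against the other stop codons followed by G. In G418 A, pooled readthrough of UGAG (22.7%) was below that of UGAC (41.8%), UGAU (36.8%) and UGAA (33.6%), and above that of UAGG (18.6%) and UAAG (8.94%). Untreated values were 1.18% and 1.13% in Untreated A and B for UGAG, 4.49% and 3.30% for UGAC, 2.43% and 1.53% for UGAA, and 2.13% and 1.57% for UGAU. UAGG stood at 1.03% and 0.816%, and UAAG at 0.850% and 0.827%. The fold over the untreated mean was 19.8 for UGAG, 19.9 for UGAU, 20.1 for UAGG, 17.0 for UGAA, and 10.7 for both UGAC and UAAG. The untreated libraries differed 1.59-fold for UGAA and 1.36-fold for UGAC, more than the 1.04-fold of UGAG.

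The RRTS of single transcripts was compared between signals within each library with Mann-Whitney tests, two-sided, run as permutation tests with 100000 resamples and adjusted by the Benjamini-Hochberg method over 15 tests. In G418 A all 5 comparisons passed an adjusted p of 0.05. The probability that a UGAG transcript had the higher RRTS was 0.354 against UGAC, 0.403 against UGAU and 0.419 against UGAA, each with an adjusted permutation p of 2.1e-05, which follows from the smallest p that these resamples can give. Against UAAG it was 0.682 (adjusted permutation p = 2.1e-05) and against UAGG 0.585 (adjusted permutation p = 3.8e-05). Fewer comparisons passed in the untreated libraries. Most transcripts there had an RRTS of 0 and were tied, which limits what these tests can separate. The pooled untreated value of UGAG lay below those of the other UGA signals and above those of UAGG and UAAG in both libraries. UGAG was lower than UGAC in Untreated A (0.426) and Untreated B (0.436), both with an adjusted permutation p of 2.1e-05. It was lower than UGAA in Untreated A (0.443, adjusted permutation p = 2.1e-05) but the comparison did not pass in Untreated B (0.488, adjusted permutation p = 0.267). In neither untreated library did UGAG pass against UGAU, UAGG or UAAG, with probabilities between 0.474 and 0.523. Several of these untreated comparisons depended on the transcripts kept. UGAG was lower than UGAU in Untreated A with zeros left out (0.394, adjusted permutation p = 0.0064), with MANE Select stop codons only (0.464, adjusted permutation p = 0.0145) and with no annotated CDS in the region (0.469, adjusted permutation p = 0.0334). It was higher than UAGG in Untreated A above the median region GC (0.534, adjusted permutation p = 0.0402) and in Untreated B with a minimum of 500 mean CDS reads (0.565, adjusted permutation p = 0.0068), and lower than UGAA in Untreated B with a minimum of 20 (0.480, adjusted permutation p = 0.0161). The call against UGAA in Untreated A was lost with zeros left out (0.465, adjusted permutation p = 0.250), and that against UGAC in Untreated B at or below the median region GC (0.474, adjusted permutation p = 0.345). The tests treat transcripts of a library as the units and say nothing about variation between cultures.

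Region GC content and coverage differed between the signals and were not adjusted for in these tests. The GC content of the readthrough region had a median of 57.1% in UGAG and in UAGG transcripts, 54.8% in UGAC, 46.7% in UGAU, 46.4% in UAAG and 44.4% in UGAA transcripts. Within the regions at or below the median GC of the matched transcripts, which left 243 UGAG transcripts, 3 of the 5 comparisons in G418 A passed, since UGAG against UGAA (0.457, adjusted permutation p = 0.110) and UGAU (0.441, adjusted permutation p = 0.0863) did not. In Untreated B, UGAG against UGAC did not pass there either (0.474, adjusted permutation p = 0.345). Within the regions above that median (718 UGAG transcripts) all 5 passed in G418 A. The part of GC content in the comparisons with UGAA and UGAU was not tested otherwise. Expected coverage also differed, with a median of 21.8 expected reads for UGAG and 14.9 for UGAC in G418 A. Where at least 20 reads were expected in every library, UGAG over UAGG in G418 A was 0.557 and no longer passed (adjusted permutation p = 0.0875), and with transcripts at 0 left out UGAG against UGAA in Untreated A was 0.465 and did not pass (adjusted permutation p = 0.250).

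**Figure D2:**
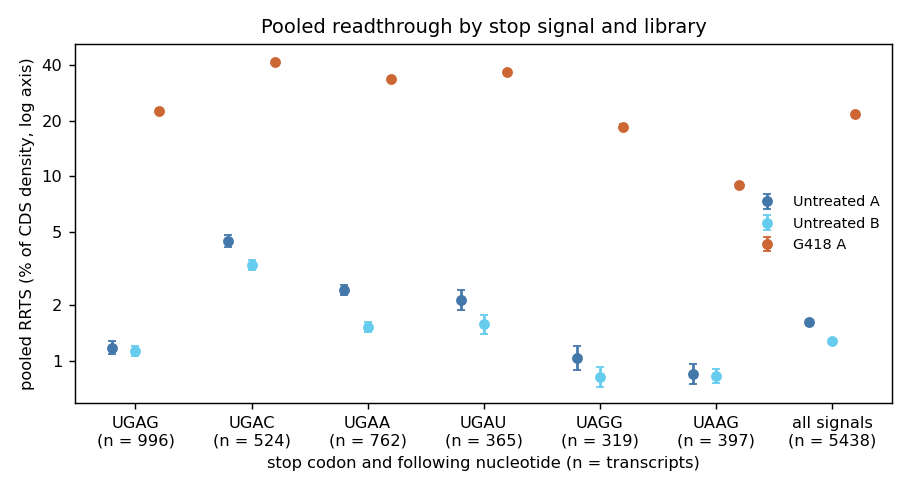
Pooled RRTS (y axis, percent of CDS density, logarithmic) of UGAG, the other 4-letter signals compared with it and all signals, for Untreated A, Untreated B and G418 A; bars are exact Poisson 95% intervals and are often smaller than the points. In G418 A, UGAG at 22.7% lies below the other UGA signals (33.6 to 41.8%) and above UAGG and UAAG.

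Individual UGAG stops ranged widely in G418. Among the 135 transcripts for which at least 100 reads were expected at CDS density in G418 A, the RRTS ran from 0 to 99.6% with a median of 15.3% and quartiles at 7.94% and 25.9%. The Poisson interval lay wholly above the pooled UGAG value in 26 of them, wholly below it in 71, and included it in 38, so that the spread between transcripts was wider than counting error. The same counts were not made over all transcripts, so they are not read as particular to UGAG. These 135 were chosen by expected reads and had a median region of 144 nt, against 78 nt for all UGAG transcripts, whose pooled value was the measure. An RRTS above 100% was seen in 63 UGAG transcripts in G418 A (6.33%, against 7.36% of all transcripts), in 3 in Untreated A (0.301%, against 0.662%) and in 5 in Untreated B (0.502%, against 0.423%). The 63 had a median region of 42 nt and a median of 9 readthrough reads, 32 of them had fewer than 10 reads, and the interval lay wholly above 100% in 12.

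The highest G418 values with at least 50 readthrough reads came from a mixed group of genes. SPCS1, a subunit of the signal peptidase complex, had 5, 2 and 113 readthrough reads in Untreated A, Untreated B and G418 A, which gave an RRTS of 8.23%, 2.62% and 220% (95% interval in G418 A 182 to 265%) over a region of 42 nt. The density in its region, which includes the 3′TC, therefore exceeded that of its CDS in G418. RNF7, a RING subunit of cullin ubiquitin ligases, had 4, 5 and 96 reads and an RRTS of 6.64%, 6.20% and 146%. SMAD4, the common mediator of TGF-β signalling, had 1, 0 and 54 reads, and its RRTS in G418 A was 141%. COX5B, a subunit of cytochrome c oxidase, had 8, 13 and 172 reads and 4.19%, 3.94% and 99.6%. In these 4 genes the G418 value lay above both untreated values, which were under 10% in each.

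PSMD8, a subunit of the proteasome's regulatory particle, had 2, 3 and 188 readthrough reads and 95.3% in G418 A. MCM2, a subunit of the replicative helicase, had no readthrough read in either untreated library and 76 in G418 A, at 86.4% (68.1 to 108%). HLA-C, a class I histocompatibility molecule, had 11, 12 and 189 reads and an RRTS of 5.37%, 2.97% and 71.2%; it belongs to a family whose members share sequence, so its reads are uncertain. HNRNPA2B1, an RNA-binding protein and the UGAG transcript with the most CDS reads, had 6, 3 and 270 reads and 61.6% in G418 A. LRRC59, a protein of the endoplasmic reticulum membrane, had 1, 0 and 175 reads and 56.2% in G418 A. The next stop codon, the region length and the +5 nucleotide differed among these genes: of the 8 found in GENCODE 44, 3 had A, 2 had C and 3 had G at +5, where A makes up 20.4% of matched UGAG transcripts.

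HOXD11, a homeobox transcription factor, stood apart because its readthrough region was occupied without the drug. It had 27 readthrough reads in Untreated A, 57 in Untreated B, against 79 in G418 A over a region of 312 nt, and its RRTS was 68.4%, 90.7% and 148% (117 to 184%). The other UGAG transcripts with at least 10 readthrough reads in each untreated library were PMAIP1, BAX, HLA-C, UQCRQ and BSG. PMAIP1, which encodes the pro-apoptotic protein NOXA, had 26, 33 and 72 reads and an RRTS of 21.6%, 18.7% and 51.6%. BAX, a pro-apoptotic member of the BCL2 family, had 12, 11 and 20 reads and 18.2%, 9.59% and 26.4%, with an interval in G418 A (16.1 to 40.8%) that included its value in Untreated A. UQCRQ, a subunit of respiratory complex III, had 21, 18 and 94 reads and 4.82%, 2.76% and 24.1%. BSG, the glycoprotein basigin, had 16, 13 and 533 reads and 0.846%, 0.345% and 21.2%, close to the pooled UGAG value in G418 A; 85 nt of its region are annotated as CDS elsewhere. Among these 6 transcripts 3 had A at +5 (20.4% of matched UGAG transcripts), namely HOXD11, PMAIP1 and HLA-C.

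The lowest G418 values among the 135 well covered transcripts were at or near 0. CSNK2A1, a catalytic subunit of casein kinase 2, and RPL15, a protein of the large ribosomal subunit, had no readthrough read in any library, with 134 and 154 reads expected in G418 A, which puts the upper limit of their RRTS there at 2.75% and 2.39%. S100A11, a calcium-binding protein, had 0, 0 and 1 read where 628 were expected in G418 A, an RRTS of 0.159% (0.00403 to 0.887%). RPL23, also of the large subunit, had 0, 0 and 2 reads and 0.286% in G418 A. WLS, which carries Wnt proteins to the cell surface, had 4, 0 and 1 read, and DAZAP2 and CDCA3 had 0, 0 and 1 read each. MAPRE3, a protein of microtubule plus ends, had 0, 0 and 1 read and 0.797%. MRPS21, of the small mitochondrial ribosomal subunit, had 1, 0 and 8 reads and 1.39%. None of the 10 lowest had A at +5, which 20.4% of matched UGAG transcripts had; 5 had C, 4 had G and 1 had U.

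Low values were often found where the annotated stop codon was not that of the MANE Select transcript. The authors had kept a single transcript per gene, that with the stop codon farthest 3′, and in 65 of the 961 matched UGAG transcripts (6.76%, against 6.83% of all matched transcripts) its stop codon differed from the MANE Select stop codon. It was the same in 894, and 2 genes had no MANE Select transcript. With a differing stop codon the pooled RRTS was 1.76% in Untreated A, 1.0% in Untreated B, against 8.11% (7.27 to 9.02%) in G418 A, and with the same stop codon it was 1.15%, 1.15% and 23.4% (22.99 to 23.8%). The untreated values of the differing group rested in good part on PMAIP1, with 26 reads in Untreated A and 33 in Untreated B, and without it the group had 0.918% in Untreated A, 0.378% in Untreated B, against 6.59% (5.82 to 7.44%) in G418 A. The G418 intervals, which cover counting error only, did not overlap. In G418 A 38 of the 65 transcripts with a differing stop codon had no readthrough read. At least 1 read was found in 41.5% of this group and in 82.9% of the group with the same stop codon. The median of expected reads was 22.4 with a differing stop codon and 21.1 with the same. RRTS was not split this way over all transcripts, so the difference is not read as particular to UGAG. The comparison was chosen after the values were seen and was not tested.

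Of the 10 lowest transcripts, 6 had a differing stop codon, namely CSNK2A1, RPL15, RPL23, WLS, DAZAP2 and CDCA3. DDX3X, an RNA helicase among the 10 UGAG transcripts with the most CDS reads, also had a differing stop codon and no readthrough read in any library with 99.5 expected in G418 A. The differing stops were not all low, since PMAIP1 reached 51.6% and ANAPC11, a subunit of the anaphase-promoting complex, 47.2% in G418 A. Whether the CDS reads of such genes came from transcripts that end elsewhere was not tested. Restricted to the 115 well covered transcripts with the MANE Select stop codon, the median RRTS in G418 A was 16.6%, and in the 12 with a differing stop codon it was 1.58%. Low values with the MANE Select stop codon were those of S100A11, MAPRE3 and MRPS21, and also of PET100, an assembly factor of cytochrome c oxidase (0, 2 and 6 reads, 1.89% in G418 A), and SLC39A7, a zinc transporter (0, 0 and 3 reads, 2.44%).

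**Figure D3:**
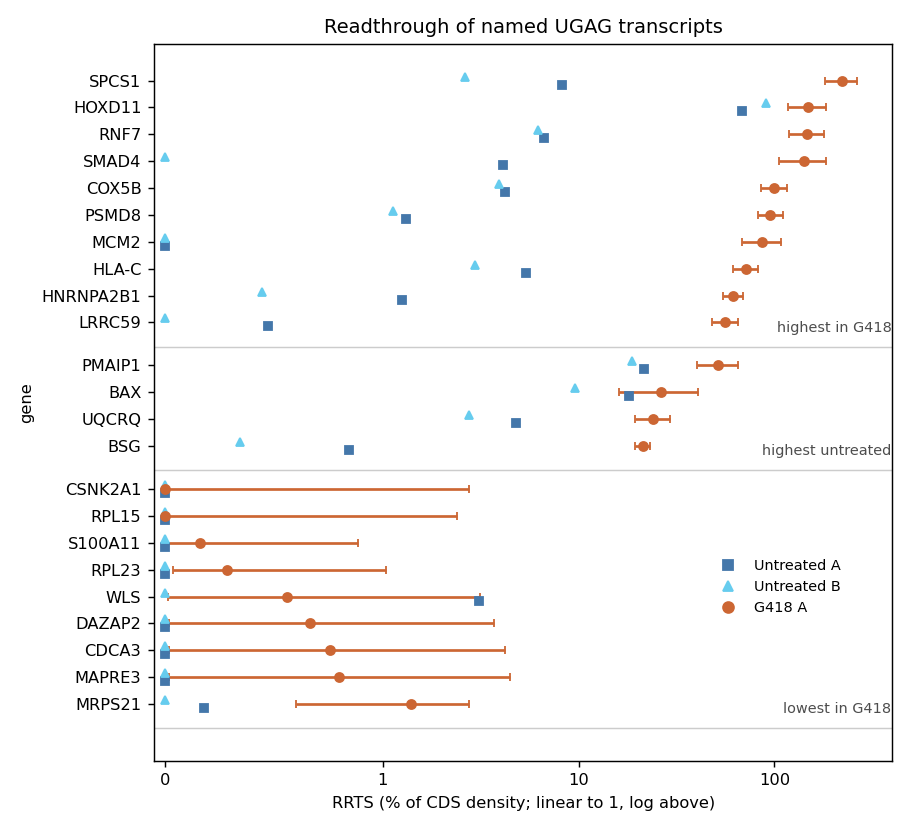
RRTS (x axis, percent of CDS density, linear to 1 and logarithmic above) of named UGAG transcripts in Untreated A (squares), Untreated B (triangles) and G418 A (circles with exact Poisson 95% intervals), grouped by the rule that named them. HOXD11 is at 68.4 to 148% in every library, while S100A11 stays at or below 0.159%.

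Among the 10 UGAG transcripts with the most CDS reads, HNRNPA2B1 (61.6% in G418 A) and DDX3X (0) were the extremes. ATP5F1B, the β subunit of ATP synthase, had 0, 3 and 166 readthrough reads and 29.5% in G418 A. PRDX1, a peroxiredoxin that removes peroxide, had 13, 8 and 743 reads and 27.0% (25.1 to 29.0%). CLTC, the clathrin heavy chain, had 7 reads in G418 A over a region of 21 nt, at 25.8% with an interval of 10.4 to 53.1%. The chaperonin subunit CCT7 had 3, 35 and 114 reads and 0.511%, 3.73% and 16.6%, so the untreated libraries differed for it, and CCT3 of the same complex had 1, 7 and 74 reads and 11.6% in G418 A. EIF4A1, the helicase of translation initiation, had 0, 0 and 57 reads and 13.4%, and the actin cross-linker FLNA 1, 0 and 33 reads and 11.1%. Across the 135 well covered transcripts the RRTS in G418 A and log2 CDS RPM had Pearson's r at 0.182 and Spearman's rho at 0.182, where both quantities contain the CDS reads.

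Properties of the readthrough region went along with the level of readthrough. The 234 UGAG transcripts with regions of 18 to 39 nt had a pooled RRTS of 34.5% in G418 A, the 369 with 42 to 99 nt 27.2%, and the 393 with 102 nt or more 19.99% (19.6 to 20.4%). The 3′TC makes up more of a short region, and the part of reads at the 3′TC in this order was not tested. In Untreated A the same groups had 1.96%, 1.56% and 0.967%, and in Untreated B 2.11%, 1.59% and 0.875%, so the order was the same in the 3 libraries. The median RRTS in G418 A differed less, at 20.5%, 20.7% and 18.4%. The 487 regions at or below the UGAG median of GC content had 26.5% in G418 A and the 474 above it 17.3%, and in untreated cells 1.37% against 0.937% in Untreated A and 1.27% against 0.992% in Untreated B. Where the next stop codon was UGA the pooled RRTS in G418 A was 20.8% (475 transcripts), where it was UAA 22.1% (279) and where it was UAG 26.4% (207). None of these groupings was tested.

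The nucleotide at +5, just after the +4 G, was compared next, since the study treats the bases after the stop codon as part of the signal. UGAG transcripts with A at +5 (196 transcripts) had a pooled RRTS of 1.98% in Untreated A, 2.78% (2.50 to 3.07%) in Untreated B, against 29.7% (28.7 to 30.8%) in G418 A. With C (293 transcripts) the values were 0.941%, 0.755% and 20.7%, with G (346) 1.04%, 0.820% and 20.3%, and with U (126) 1.15%, 0.925% and 21.9%. The pooled value with A was thus the highest in each library, and without HOXD11 it was 1.66%, 2.37% and 29.1%. A Kruskal-Wallis statistic over the 4 nucleotides, run as a permutation test with 100000 resamples and adjusted over 3 libraries, passed in Untreated B (22.5, adjusted permutation p = 2.7e-04), where 32.7% of transcripts with A had a readthrough read against 17.0 to 20.1% of the others. In Untreated A the share was 22.4% with A and highest with U, at 26.2%, and in G418 A it was lowest with A, at 78.1% against 79.5 to 82.5%. It did not pass in Untreated A (4.57, adjusted permutation p = 0.206) or in G418 A (5.06, adjusted permutation p = 0.206), and the difference between libraries was not tested. With transcripts at 0 left out it passed in G418 A (13.2, adjusted permutation p = 0.0122) and not in Untreated B (7.92, adjusted permutation p = 0.0698), where it also did not pass with a minimum of 500 mean CDS reads (4.99, adjusted permutation p = 0.259). With regions of at least 60 nt it passed in Untreated A (11.8, adjusted permutation p = 0.0116) and G418 A (8.12, adjusted permutation p = 0.0429) as well as in Untreated B (24.6, adjusted permutation p = 6e-05).

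A scan of the 26 positions from 15 nt before the stop codon to 12 nt after it, again by permutation of the Kruskal-Wallis statistic, gave 1 call among 78 tests, that of +5 in Untreated B (adjusted permutation p = 0.0070). In Untreated A 0 positions were called and 1 had an unadjusted p under 0.05. In G418 A 0 positions were called and 3 had an unadjusted p under 0.05. The nearest of these was the base just before the stop codon (adjusted permutation p = 0.0558). With U there (99 transcripts) the pooled RRTS in G418 A was 34.3%, with A 25.1%, with C 22.2% and with G 19.4%.

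**Figure D4:**
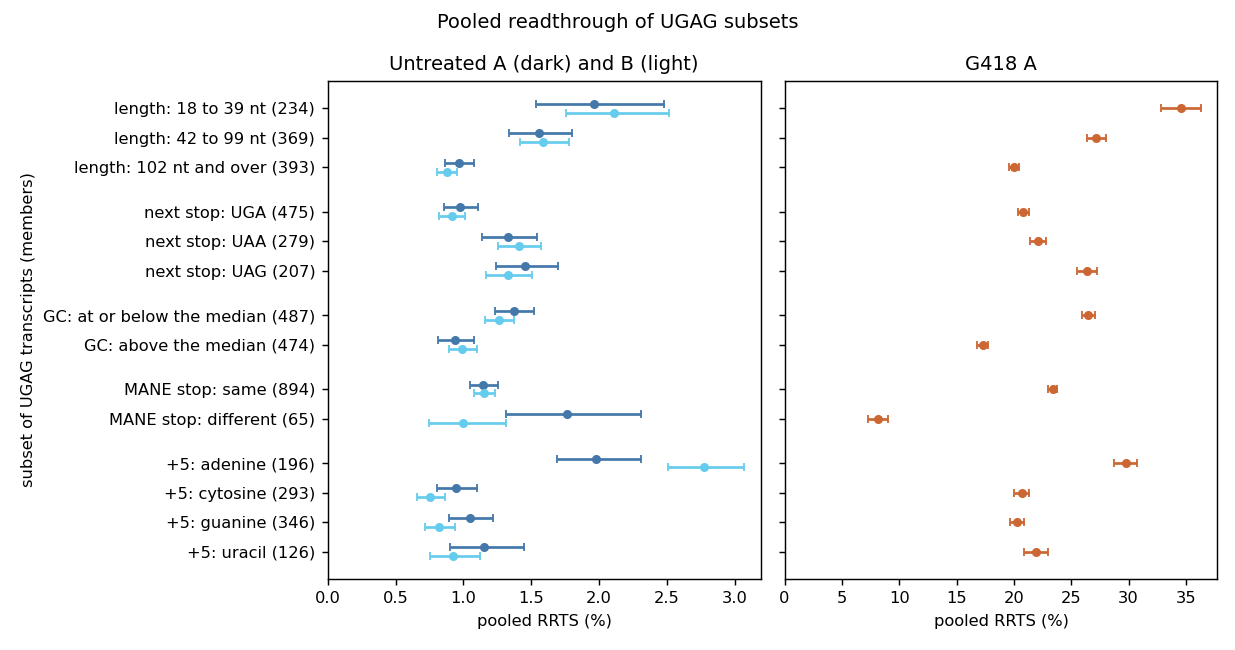
Pooled RRTS (x axes, percent of CDS density) of subsets of the UGAG transcripts (y axis, with the number of transcripts) by length of the readthrough region, next stop codon, GC content, MANE Select stop codon and +5 nucleotide; left, Untreated A (dark) and Untreated B (light), right, G418 A, with exact Poisson 95% intervals. In G418 A the subset with a differing MANE Select stop codon is the lowest at 8.11% and the shortest regions the highest at 34.5%.

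RPF density fell off after the 3′TC of UGAG transcripts, and it was lower there than before the 3′TC in each library. In the 995 UGAG transcripts with 3′UTR beyond the 3′TC, RPFs beyond the 3′TC stood at 0.206% of CDS density in Untreated A (1097 reads), 0.209% in Untreated B (1791 reads), against 1.03% in G418 A (6905 reads). The ratio of the density after the 3′TC to that before it was 0.177 in Untreated A, 0.186 in Untreated B, against 0.0451 in G418 A. Over all transcripts the same ratio was 0.111, 0.124 and 0.0392. In G418 A the density beyond the 3′TC was thus higher than in both untreated libraries, while its share of the density before the 3′TC was lower. The density beyond the 3′TC was taken over the whole rest of the 3′UTR, and the density before it included the 3′TC itself. UGAG 3′UTRs had a median of 768 nt and of 10 in-frame stop codons. The ratio is therefore not the share of ribosomes that passed the first 3′TC. In short windows around stop codons, the paper reported more density kept past 3′TCs than past NTCs in G418.

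The RRTS of single UGAG transcripts was compared between libraries where both had readthrough reads. In 237 transcripts a single untreated library had readthrough reads and the other had none. Among the 91 transcripts with readthrough reads in both untreated libraries, log2 RRTS had Pearson's r at 0.763 and Spearman's rho at 0.726 between Untreated A and Untreated B. Between Untreated A and G418 A they were 0.380 and 0.377 (194 transcripts), and for Untreated B against G418 A 0.325 and 0.293 (197 transcripts). These are descriptions over transcripts, which share their region length and base composition between the libraries, and transcripts at 0 were left out. CDS density, which is in each RRTS, was also similar between the libraries for most transcripts. In Untreated A 586 readthrough reads lay in 205 transcripts, so many of these RRTS values rested on few reads.

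UGAG transcripts were also grouped by gene lists read by symbol, and the pooled RRTS of each list in G418 A is set here against 22.7% for all UGAG transcripts. The 9 zinc finger genes had 43.9% (33.4 to 56.6%) on 59 reads, and of the 4 with the most CDS reads ZNF622 had 89.6%, ZNF462 no readthrough read, ZNF410 8.91% and ZNF264 98.6%. The 4 proteasome subunits had 34.6%, with PSMD3 at 14.6%, PSME3 at 23.4% and PSMD4 at 27.0%, and the value was 16.03% without PSMD8 and 73.2% without PSMD3. The 12 oxidative phosphorylation genes had 32.6% (30.4 to 34.9%), and 7 of them lay above the pooled UGAG value, which 45.7% of all UGAG transcripts did. Among them COX4I1, a subunit of cytochrome c oxidase, had 2, 3 and 247 reads and 33.2%, and NDUFB8, of complex I, 1, 0 and 8 reads and 12.4%. The 12 splicing factors had 31.7%, with 10 above the pooled value and a median of 42.8% against 20.1% for all UGAG transcripts. U2AF1, which binds the 3′ splice site, had 0, 1 and 44 reads and 111%, and its near-identical copy U2AF1L5 0, 2 and 34 reads and 91.3%, so the division of reads between them is uncertain. SF3B3 of the U2 particle had 33.4% and SF3B5 26.1%. The 7 DNA replication genes had 29.7%, with MCM2 at 86.4%, MCM6 at 39.3%, MCM3 at 18.2% and MCM5 at 11.1%, and 17.7% without MCM2.

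Other lists lay below the pooled value. The 6 mitochondrial ribosomal proteins had 7.51% (6.01 to 9.27%) and none was above the pooled value: MRPL14 had 16.2%, MRPL24 10.2% and MRPS21 1.39%, while MRPL20 had 2, 7 and 3 reads and 13.8%, 31.1% and 17.3%. The value rested on 2 of them, at 13.7% without MRPS21 and 2.24% without MRPL14. The 6 cytosolic ribosomal proteins had 9.88% (8.59 to 11.3%), and 5.94% without RPS28. RPL35 was at 35.6% on 62 reads over 18 nt and RPL10 at 4.02%. RPL23 (0.286%, 699 reads expected) and RPL15 (no readthrough read, 154 expected) ended at a stop codon differing from MANE Select. These low values lowered that of the list, and its value without both was not computed. The 4 chaperones had 14.3%, the 5 histones 14.5%, the 9 Rab GTPases and coat proteins 14.7%, the 12 solute carriers 15.6%, the 9 initiation factors 17.2%, the 6 aminoacyl-tRNA synthetases 17.3% (9.62% without AARS) and the 3 ubiquitin conjugation genes 18.9%. Histone and EIF3C reads are uncertain because near-identical copies exist, and EIF3C and EIF3CL had 13.5% and 12.9%. In untreated cells the lists with at least 10 readthrough reads in a library lay between 0.432% and 2.73%. The chaperones had 0.518% in Untreated A and 2.34% in Untreated B, where 35 of their 42 reads were in CCT7. The lists hold 3 to 12 UGAG transcripts each, and no test was made over them.

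**Figure D5:**
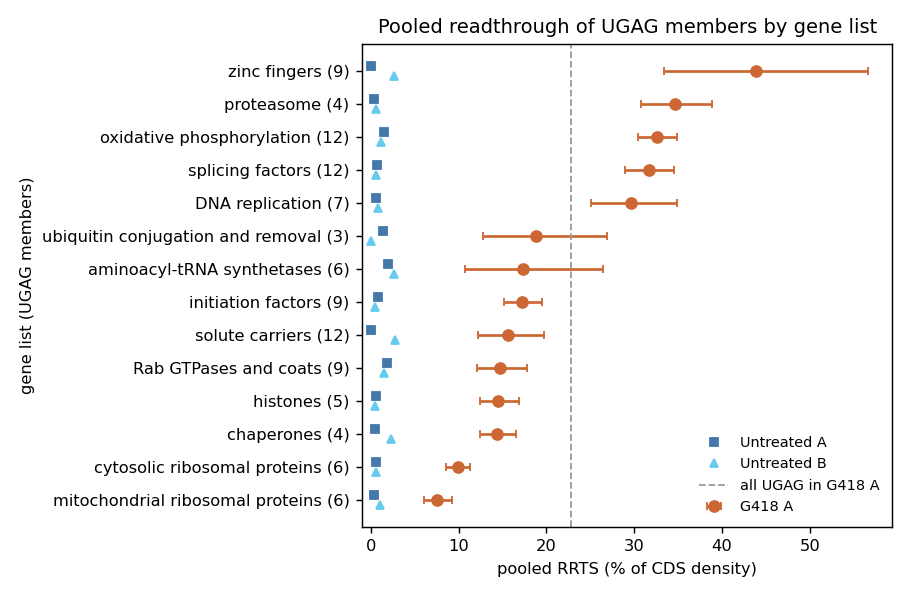
Pooled RRTS (x axis, percent of CDS density) of the UGAG members of 14 gene lists (y axis, number of members in brackets) in Untreated A (squares), Untreated B (triangles) and G418 A (circles with exact Poisson 95% intervals), with the pooled value of all UGAG transcripts in G418 A as a dashed line. Mitochondrial ribosomal proteins are lowest at 7.51% and zinc finger genes highest at 43.9%.

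CDS density of UGAG transcripts differed little between the conditions in the aggregate. The median log2 difference of CDS RPM, G418 A minus the untreated mean, was 0.07 in UGAG transcripts and 0.07 in all 5438. For Untreated B minus Untreated A the median was 0.103 in UGAG transcripts and 0.0268 in all. A difference of at least 1 on the log2 scale was found upward in 15 UGAG transcripts (1.51%, against 1.08% of all) and downward in 1 (0.1%, against 0.0919%). Between the untreated libraries the same size was found upward from Untreated A to Untreated B in 5 (0.502%, against 0.257%) and downward in 2 (0.201%, against 0.147%). The upward count depended on the untreated library used, at 35 against Untreated A alone and 12 against Untreated B alone, and the downward count was 0 and 4. The shares over all transcripts were not computed for these counts. In bulk profiles a change per cell and a change in the number of cells that carry a transcript cannot be told apart.

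The largest differences were in weakly covered transcripts. ALKBH5, the RNA m6A demethylase, had a CDS RPM of 11.4 in Untreated A, 25.5 in Untreated B, against 51.0 in G418 A, so the untreated values also lay far apart. ADIPOR1, an adiponectin receptor, had 22.7, 28.8 and 70.0 (log2 difference 1.44), TNFRSF1A, the TNF receptor, 10.2, 15.1 and 33.9 (1.42), ALG12, a mannosyltransferase of N-glycan synthesis, 18.1, 22.6 and 50.4 (1.31), and the kinase AKT1 8.71, 15.7 and 29.2 (1.26). PRMT6, an arginine methyltransferase, had 20.8, 27.4 and 11.8, and its log2 difference was −1.03. ALKBH5 had no readthrough read in any library with 12.5 expected in G418 A. There AKT1 had 12 reads (15.7%), ADIPOR1 8 (22.2%), TNFRSF1A 4 (10.1%) and ALG12 3 (14.6%). The Poisson interval of each included the pooled UGAG value, with upper limits of 29.6% (ALKBH5), 27.5% (AKT1), 43.8% (ADIPOR1), 25.8% (TNFRSF1A) and 42.6% (ALG12). The G418 A CDS reads by which these rises were named are also in the denominator of this RRTS. Across the 135 well covered transcripts the RRTS in G418 A and the log2 CDS difference had Pearson's r at -0.230 and Spearman's rho at -0.201, with the CDS reads of G418 A in both.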

How the data were processed

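The authors sequenced RPFs of 3 libraries (2 untreated, 1 G418), collapsed duplicates by molecular identifier, removed noncoding RNA and aligned the rest with STAR to hg38, guided by GENCODE 30; the submitters' processing notes also name CASAVA 1.8. Primary alignments of 28 to 35 nt were assigned to a single transcript per gene. For each transcript the authors deposited RPM values, whole-number counts, RPKM densities (CDS without its first 18 and last 15 nt) and the RRTS ratio, whose region starts 6 nt after the stop codon. A second deposited ratio, whole 3′UTR occupancy, was not used for results.

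Here each RPM value was divided by that of 1 read. This gave whole reads for 100% of values within 0.01 read, and these were used in place of the deposited counts, which in Untreated A were mostly 1 lower. The deposited counts served for the count minimum. The pooled RRTS was reads over reads expected from CDS density, and intervals cover counting error only. Reads per library, and the expected reads behind each value, are given with the results. Tests were permutation tests within libraries, checked on data simulated from the G418 A values of UGAG transcripts. The simulation held no coverage difference between signals and did not cover the untreated libraries.

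Sequences and stop positions came from GENCODE 44. The UGAG transcripts, gene lists and tests were chosen with earlier results of these data known. Named were the 10 highest (at least 50 readthrough reads) and 10 lowest (at least 100 expected) in G418, the 10 with most CDS reads, those with at least 10 readthrough reads in each untreated library, the 5 largest CDS differences each way past a log2 of 1, and up to 4 per list by CDS RPM. Lists were read by symbol. Some items that these rules select are not reported here. Samples were grouped by their treatment label. Python 3.11.15, numpy 2.4.6, scipy 1.17.1 and pandas 2.3.3 were used.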

Additional observations from a re-analysis of the deposited data

How the results depend on the processing

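In 216 of 274 recomputed values the result was counted as the same. For pooled values, shares and medians this meant staying within the interval, and for tests staying on the same side of the threshold. Folds and counts were judged by closeness to the main value, and 12 CDS rises against 15 counted as the same. Reversal applied only to comparisons of signals called with the main settings, and 0 were reversed in each library. The untreated medians were 0 in every setting tried and carry little weight here. The limits were coverage and the single G418 library. No paired analysis was possible because the groups share only the letter A, a single pair. The settings restricted by MANE Select stop codon, annotated CDS, region GC or HOXD11, all those for the median, and the values without PMAIP1 or a gene list member were chosen after seeing the data.

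With a minimum of 500 mean CDS reads, the pooled RRTS was 0.961% (Untreated A), 0.830% (Untreated B) and 21.5% (G418 A), a fold of 24.0; the shares above 0 were 30.1%, 30.6% and 90.05%; 2 comparisons of signals were called in Untreated B; +5 did not pass in Untreated B (4.99); and 1 CDS rise and 0 falls remained past the size used. With a minimum of 20, the fold was 18.9, the shares 15.4%, 16.1% and 68.8%, the median in G418 A 16.6%, 2 comparisons were called in Untreated B, +5 passed in Untreated A (9.09), and there were 61 rises and 13 falls. With regions of at least 60 nt, the pooled RRTS was 1.04% in Untreated B, against 21.5% in G418 A, the shares were 25.1%, 25.1% and 87.1%, and +5 passed in Untreated A (11.8) and G418 A (8.12).

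Without the 1% of transcripts with the most reads, the pooled RRTS was 0.994%, 0.922% and 21.8%, the fold 22.7, and the ratio after over before the 3′TC 0.129, 0.141 and 0.0410. The pooled value in G418 A was 23.4% without families of near-identical copies and 23.4% with MANE Select stops alone, where the share above 0 was 82.9%. The fold was 18.9 with no annotated CDS in the region and 20.7 without HOXD11. At low region GC, 0 comparisons were called in Untreated B, against 3 in G418 A. With zeros left out, +5 did not pass in Untreated B (7.92) and passed in G418 A (13.2). Leaving out an untreated library gave folds of 19.3 to 20.2, 12 to 35 rises (35 without Untreated B) and 0 to 4 falls (4 without Untreated A); centring on all transcripts gave 3 falls. The causes were not tested.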

Other observations

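The 58 UGAG transcripts with a 3′UTR that holds no further stop in frame were outside the set, since their readthrough region has no stop to end it. Their pooled density after the stop codon came to 0.743% of CDS density in Untreated A (24 reads), 0.741% in Untreated B (46 reads), against 23.5% in G418 A (970 reads, exact Poisson 95% interval 22.0 to 25.02%). In G418 A 44 of the 58 had at least 1 read, with a median of 16.6%, and in the untreated libraries 12 and 11 had.

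The highest RRTS of any UGAG transcript in G418 A was 582% in BIRC6, an inhibitor of apoptosis. It rested on 9 reads where 1.55 were expected, and its interval ran from 266 to 1104%.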
